A study of Mus musculus with 6 samples.

Results

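Messenger RNA of 10 immediate early transcription factor genes was measured in cultured neonatal mouse cardiomyocytes: the FOS family genes Fos, Fosb, Fosl1 and Fosl2, the JUN family genes Jun and Junb, the zinc finger gene Egr1, and the orphan nuclear receptor genes Nr4a1, Nr4a2 and Nr4a3. They were chosen by symbol, with earlier results of these data known. They are 10 of the 55487 genes in the count table, and all 10 passed the expression filter that 15576 genes passed. The cells were wild-type ventricular cardiomyocytes of postnatal day 1 or 2, from which fibroblasts had been removed with CD90 antibodies. They were plated on fibronectin for 12 h and then treated for 48 h in medium with serum. The groups were GANT61 at 3 µM, a blocker of the GLI transcription factors, cyclopamine at 5 µg/ml, a blocker of the Hedgehog transducer Smoothened, and DMSO, the solvent control. The doses are given in different units and were not converted, and whether they are matched in effect is not known. By the labels each group has 2 samples, yet the count table gives 1 column for each, and whether a column is 1 culture or a pool is not given in the sources used here. There is therefore no replicate error and no test for any difference below, and both comparisons against DMSO share the same DMSO library.

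The libraries held 35461530 counts for GANT61, 38966515 for cyclopamine and 36661845 for DMSO. Of 8 cardiomyocyte markers, among them Myh6, Tnnt2 and Actn2, all were detected, with summed levels of 45396 CPM in GANT61, 52870 CPM in cyclopamine and 54938 CPM in DMSO. CPM is the count of a gene per 1000000 counts of its library, with library sizes adjusted by TMM. Thy1, which encodes CD90, kept 1207 counts in GANT61, 2834 in cyclopamine and 3050 in DMSO, so RNA of that marker was still present in each library. In bulk samples of this kind, fewer cells of a type and less RNA per cell cannot be told apart. The log2 fold change of a gene was taken over TMM-scaled counts with a prior count of 2. Calls were made by size: a gene counted as higher or lower if its fold was 1.5 or more and 0 lay outside the exact 95% counting interval of its log2 ratio. Such intervals hold the error of counting reads and nothing of how cultures vary.

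Immediate early genes are transcribed within minutes of a stimulus because the factors that switch them on, such as SRF with its ternary complex partners and CREB, are already present and are activated by kinases. Their messages are short-lived. FOS and JUN proteins pair through leucine zippers to form AP-1, EGR1 binds GC-rich sites through zinc fingers, and the NR4A proteins are orphan receptors whose activity depends largely on how much of them is made. In cardiac muscle these genes are known for their response to stretch, adrenergic and growth factor stimulation, and to the isolation of cells.

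The bases before each transcription start show which promoter motifs the genes share. RefSeq promoters (GRCm38.p6) were at hand for 8 of the 10 genes; Fosl1 and Egr1 were not matched. The 250 bases before each start are shown for the 4 genes with matched promoters that were called higher in GANT61 (Fos, Junb, Nr4a1, Nr4a3), for Nr4a2, which was called lower, and for Jun, which was not called. Capitals mark TGACG, the core of the cAMP response element that CREB and ATF factors bind, and GCGNGGGCG, the EGR motif, on either strand. For Nr4a3 the 152 bases nearest the start lie in an annotated exon and are left out, so 98 bases are shown. The stretches are chr12:85473640-85473889 on the + strand, chr8:84978749-84978998 on the - strand, chr15:101266596-101266845 on the + strand, chr4:48045055-48045152 on the + strand, chr2:57124004-57124253 on the - strand and chr4:95052223-95052472 on the - strand, each written 5′ to 3′ along its gene.
Fos: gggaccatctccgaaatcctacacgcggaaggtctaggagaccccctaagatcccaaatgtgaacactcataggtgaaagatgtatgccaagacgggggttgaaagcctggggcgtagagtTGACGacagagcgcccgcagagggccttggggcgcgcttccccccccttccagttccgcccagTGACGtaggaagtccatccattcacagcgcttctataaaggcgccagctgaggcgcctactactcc
Junb: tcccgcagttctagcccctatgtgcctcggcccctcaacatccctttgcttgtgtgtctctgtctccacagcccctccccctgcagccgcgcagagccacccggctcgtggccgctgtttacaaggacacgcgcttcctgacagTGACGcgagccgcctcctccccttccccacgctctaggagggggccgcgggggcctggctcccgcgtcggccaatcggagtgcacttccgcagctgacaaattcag
Nr4a1: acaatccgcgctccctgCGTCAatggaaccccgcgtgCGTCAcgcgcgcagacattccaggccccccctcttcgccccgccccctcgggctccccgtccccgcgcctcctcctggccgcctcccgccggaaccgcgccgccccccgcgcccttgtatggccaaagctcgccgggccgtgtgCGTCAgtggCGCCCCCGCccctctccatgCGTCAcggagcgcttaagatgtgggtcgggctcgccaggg
Nr4a3: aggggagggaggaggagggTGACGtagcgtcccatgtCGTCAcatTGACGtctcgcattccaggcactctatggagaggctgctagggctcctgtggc
Nr4a2: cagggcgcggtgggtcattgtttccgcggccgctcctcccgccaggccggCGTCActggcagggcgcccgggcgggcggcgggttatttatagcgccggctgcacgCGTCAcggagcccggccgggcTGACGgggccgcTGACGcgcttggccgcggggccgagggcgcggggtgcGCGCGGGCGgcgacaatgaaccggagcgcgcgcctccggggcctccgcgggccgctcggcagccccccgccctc
Jun: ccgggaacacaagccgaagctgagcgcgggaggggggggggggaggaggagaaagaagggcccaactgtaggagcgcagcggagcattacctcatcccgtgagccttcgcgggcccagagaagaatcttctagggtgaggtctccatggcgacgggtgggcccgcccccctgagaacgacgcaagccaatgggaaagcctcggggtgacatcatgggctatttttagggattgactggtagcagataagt

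TGACG occurred in 6 of the 8 promoters, Fos, Fosb, Junb, Nr4a1, Nr4a2 and Nr4a3, against 17.8% of all 32851 promoters in the table. The 3 NR4A promoters held 4 matches each, Fos held 2, and Junb and Fosb held 1. The match of Nr4a3 from base -147 to base -143 lies in the exon bases left out above, so 3 can be seen there. In Fos the match nearest the start ran from base -66 to base -62. The EGR motif GCGNGGGCG lay in Fosb, Fosl2, Nr4a1 and Nr4a2, 4 of 8, against 4.70% of all promoters. For Fosl2 the whole window of 250 bases lies in an annotated exon. None of the 8 held the full cAMP response element TGACGTCA (1.55% of all promoters), the AP-1 motif TGANTCA (6.75%), the NR4A motif AAAGGTCA (1.34%), the GLI motif GACCACCCA (0.225%) or a CArG box, the SRF site (1.47%). Both strands were searched, and every TGACGTCA contains TGACG. Jun held no exact match to these motifs in its window. Any link between these motif counts and the levels described next was not tested. A match is an exact run of letters and says nothing of binding. A window without one says nothing of sites elsewhere or of near matches within it, which were not searched.

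**Figure D1:**
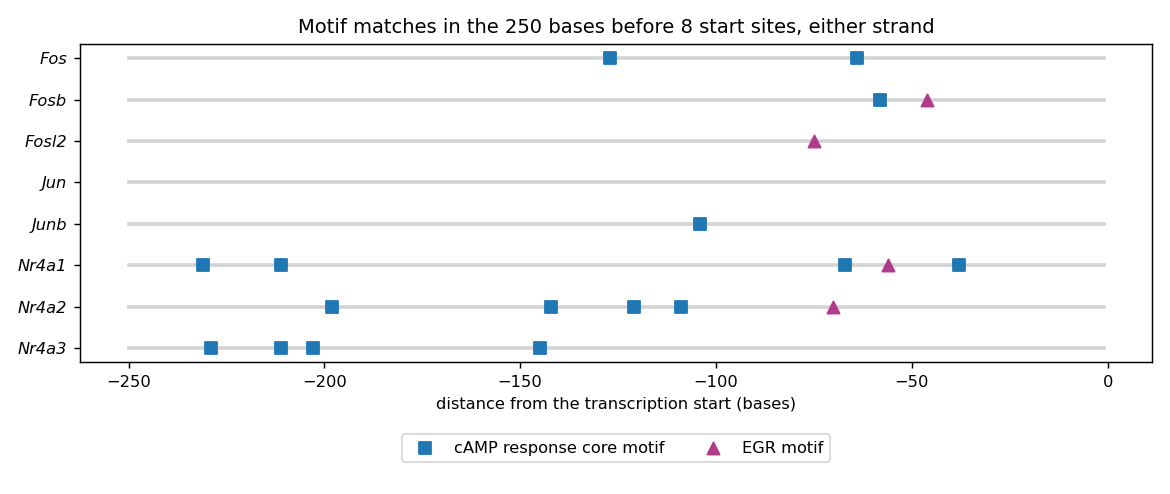
Positions of the TGACG core of the cAMP response element (squares) and of the EGR motif (triangles) in the 250 bases before the start of 8 of the 10 genes, in bases from the start, either strand. Nr4a1, Nr4a2 and Nr4a3 have 4 squares each and Jun has no symbol.

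Across the family, GANT61 had the larger count of calls. Against DMSO, 5 of the 10 genes were called higher in GANT61 (Fos, Junb, Egr1, Nr4a1 and Nr4a3), where 8.40% of all filtered genes were, and 1, Nr4a2, was called lower, where 13.3% were. In cyclopamine 2 were called higher (Egr1 and Nr4a3), where 4.10% of all genes were, and 1, again Nr4a2, was called lower, where 7.27% were. The median log2 fold change of the 10 genes was 0.66 in GANT61 and 0.23 in cyclopamine, and over all filtered genes it was -0.0069 and -0.0040. GANT61 against cyclopamine directly called 2 higher (Fos and Nr4a3), where 6.16% of all genes were, and 0 lower, where 8.83% were, with a median of 0.39 for the 10 genes and -0.0033 for all. With 7 genes left after asking for 5 CPM in 2 libraries, the counts in GANT61 against DMSO were 4 higher, where 6.01% of the genes past that filter were, and 0 lower, where 8.47% were, since Fosb, Nr4a2 and Nr4a3 lie below that level.

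**Figure D2:**
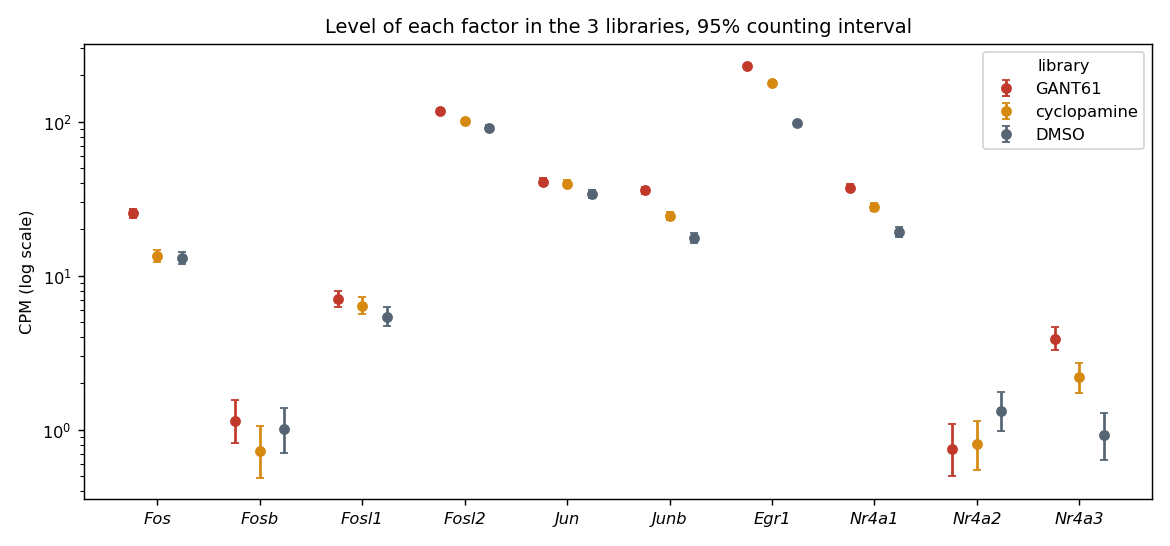
Level of each gene in CPM (log axis) in the GANT61, cyclopamine and DMSO libraries, 1 library each, with the 95% counting interval of the count. Egr1 is highest in each library, and Fosb, Nr4a2 and Nr4a3 lie lowest.

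**Figure D3:**
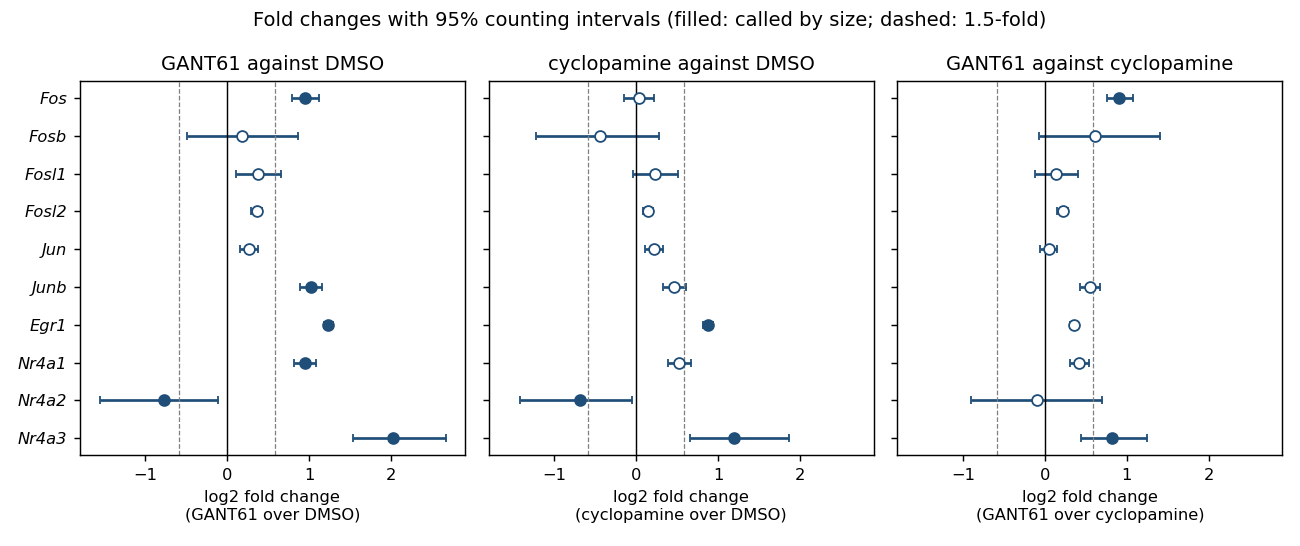
Log2 fold changes of the 10 genes in the 3 comparisons with exact 95% counting intervals. Filled points are called by size, and dashed lines mark 1.5-fold. Nr4a3 has the highest value against DMSO in both inhibitor libraries, at 4.06-fold in GANT61 and 2.29-fold in cyclopamine, and Nr4a2 lies below 0 in both.

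The FOS family encodes the partners that need a JUN protein to bind DNA. Fos (chromosome 12, 85473890 to 85477273, GRCm38), the founding member with a strong activation domain, had 909 counts in GANT61, 518 in cyclopamine and 483 in DMSO, or 25.4, 13.5 and 13.1 CPM. GANT61 stood apart, and cyclopamine and DMSO lay within counting error of each other. Its log2 fold change was 0.95 in GANT61 (counting interval 0.79 to 1.11) and 0.04 in cyclopamine (-0.14 to 0.22), and 0.91 in GANT61 against cyclopamine (0.76 to 1.07). Fosb (chromosome 7, 19302696 to 19310051), known for a truncated stable splice form in neurons, had 41 counts in GANT61, 28 in cyclopamine and 37 in DMSO, or 1.15, 0.729 and 1.01 CPM. At this depth no difference was detectable for Fosb: all 3 of its intervals included 0, with log2 fold changes of 0.18 in GANT61 (-0.49 to 0.87) and -0.44 in cyclopamine (-1.23 to 0.28). Fosl2 (chromosome 5, 32135801 to 32157842), which encodes FRA-2, a member without the activation domain of FOS, had 4223 counts in GANT61, 3901 in cyclopamine and 3379 in DMSO, or 118, 102 and 91.8 CPM. It lay above DMSO beyond counting error in both inhibitor libraries but under 1.5-fold, with log2 fold changes of 0.36 in GANT61 (0.30 to 0.43) and 0.15 in cyclopamine (0.08 to 0.21).

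Fosl1 (chromosome 19, 5447547 to 5455946), which encodes FRA-1, had 253 counts in GANT61, 246 in cyclopamine and 200 in DMSO, or 7.07, 6.40 and 5.43 CPM. Its log2 fold change was 0.38 in GANT61 (0.11 to 0.65) and 0.24 in cyclopamine (-0.04 to 0.51). The gene lies over Ccdc85b, a coiled-coil gene on the opposite strand, and 1163 of its exon bases belong to both. Of the 50-base windows in its longest transcript, 58.9% also occur in that gene. The strand setting of the counting is not given in the sources used here, so reads of the pair cannot be told apart with certainty. Ccdc85b had 103 counts in GANT61, 193 in cyclopamine and 145 in DMSO, and its part in the Fosl1 counts was not tested. Jun shares 5.83% of its windows with its antisense gene Junos, which had 3, 14 and 8 counts in GANT61, cyclopamine and DMSO. Junb shares 173 exon bases with Prdx2 on the opposite strand, a deeply counted gene with 8529, 11004 and 10200 counts in the same order, though no whole window in its longest transcript. Nr4a3 shared 0.159% of its windows, and the other 6 genes shared none.

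The JUN genes encode factors that bind as JUN pairs or with a FOS partner. Junb (chromosome 8, 84974484 to 84978718), often a restraint on JUN in growth control, had 1286 counts in GANT61, 939 in cyclopamine and 650 in DMSO, or 35.9, 24.4 and 17.7 CPM. The 3 libraries lay apart beyond counting error, in that order. On the log2 scale Junb stood at 1.02 in GANT61 (0.89 to 1.16), 0.47 in cyclopamine (0.32 to 0.62) and 0.55 in GANT61 against cyclopamine (0.43 to 0.68), where it stayed short of 1.5-fold. Jun (chromosome 4, 95049034 to 95052222), a gene of a single exon and the founding AP-1 subunit, had 1465 counts in GANT61, 1521 in cyclopamine and 1249 in DMSO, or 40.9, 39.6 and 33.9 CPM. The 2 inhibitor libraries did not differ from each other beyond counting error, and both lay slightly above DMSO, by a log2 fold change of 0.27 in GANT61 (0.16 to 0.38) and 0.22 in cyclopamine (0.11 to 0.33). Jund, the third JUN gene and not among the 10, had 1278 counts in GANT61, 1613 in cyclopamine and 1247 in DMSO and was not called.

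Egr1 (chromosome 18, 34859823 to 34864984), a serum and growth factor response gene, was the most abundant of the 10. It had 8231 counts in GANT61, 6902 in cyclopamine and 3601 in DMSO, or 230.0, 179.7 and 97.8 CPM. Both inhibitor libraries stood well above DMSO, GANT61 the higher. The log2 fold change of Egr1 was 1.23 in GANT61 (1.18 to 1.29), 0.88 in cyclopamine (0.82 to 0.94) and 0.36 in GANT61 against cyclopamine (0.31 to 0.40). The related genes went otherwise. Egr2 had 60 counts in GANT61, 73 in cyclopamine and 93 in DMSO and was not called. Egr3 had 34, 57 and 61 counts in the same order and was called lower in GANT61 at -0.77 (-1.45 to -0.17). Egr4 had 0 counts in all 3 libraries. Of the NAB genes, which encode corepressors of EGR factors and are themselves EGR targets, Nab2 had 1408 counts in GANT61, 2055 in cyclopamine and 1335 in DMSO. Its log2 fold change was 0.12 in GANT61 (0.01 to 0.23) and 0.56 in cyclopamine (0.46 to 0.66), both short of the call, and that of Nab1 was 0.01 in GANT61 and 0.11 in cyclopamine.

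The NR4A genes split. Nr4a1 (chromosome 15, 101254269 to 101274795), which is induced by adrenergic signals in the heart, had 1334 counts in GANT61, 1069 in cyclopamine and 711 in DMSO, or 37.3, 27.8 and 19.3 CPM. All 3 libraries lay apart beyond counting error. Its log2 fold change was 0.95 in GANT61 (0.82 to 1.08) and 0.53 in cyclopamine (0.39 to 0.67). In cyclopamine it was 1.44-fold higher and so just short of the call. Nr4a3 (chromosome 4, 48045153 to 48086447) was scarce, with 140 counts in GANT61, 84 in cyclopamine and 34 in DMSO, or 3.91, 2.19 and 0.924 CPM. It had the largest fold of the 10, 4.06-fold in GANT61 (log2 interval 1.53 to 2.67) and 2.29-fold in cyclopamine (0.65 to 1.86). GANT61 against cyclopamine stood at 0.82 on the log2 scale (0.44 to 1.25). Nr4a2 (chromosome 2, 57106830 to 57124003), best known from dopamine neurons, was the only one of the 10 called lower, on few counts. It had 27 counts in GANT61, 31 in cyclopamine and 49 in DMSO, or 0.754, 0.807 and 1.33 CPM. Its log2 fold change was -0.78 in GANT61 (-1.55 to -0.11) and -0.69 in cyclopamine (-1.42 to -0.04), so both intervals came near 0, and the inhibitor libraries did not differ from each other beyond counting error.

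Levels were then set against each other per kilobase of exon, in CPM per kilobase. Egr1 came first in each library, at 51.3 in GANT61, 40.1 in cyclopamine and 21.8 in DMSO, above 94.3%, 92.7% and 87.0% of the filtered genes. In GANT61 Junb followed at 15.6, then Jun at 12.8 and Fosl2 at 12.2, whose intervals overlapped, and then Fos at 10.8 and Nr4a1 at 10.6, which overlapped too. In cyclopamine the order after Egr1 was Jun at 12.4, Junb at 10.6 and Fosl2 at 10.5, the last 2 overlapping, with Nr4a1 at 7.93 and Fos at 5.73. In DMSO it was Jun at 10.6, Fosl2 at 9.48 and Junb at 7.67, with Fos at 5.58 and Nr4a1 at 5.50 overlapping. Fosl1 was seventh in each, between 2.67 and 3.48. Nr4a3 was last in DMSO at 0.15 and overlapped Fosb at 0.16, whereas in both inhibitor libraries it was above Nr4a2 and Fosb, at 0.65 in GANT61 and 0.37 in cyclopamine. Lengths are those of all annotated exons merged. With the longest transcript in their place, Fosl2 reaches 18.0, 15.5 and 14.0 CPM per kilobase in GANT61, cyclopamine and DMSO. It then stands above Jun in each. Nr4a1 reaches 14.6 in GANT61, above Jun at 12.8 and Fos at 12.0, and 7.57 in DMSO, above Fos at 6.22. The order of those genes thus depends on the length used.

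The make-up of each family, by counts not adjusted for gene length, needs no scaling between libraries. Fos took 16.8% of the FOS family counts in GANT61 (Clopper-Pearson interval 15.8 to 17.8), 11.0% in cyclopamine (10.2 to 12.0) and 11.8% in DMSO (10.8 to 12.8). Fosl2 took 77.8% in GANT61, 83.1% in cyclopamine and 82.4% in DMSO, so it held most FOS family reads throughout. A share of reads is not a share of messages, since Fosl2 has 9.68 kb of merged exon and Fos 2.352 kb. Per kilobase the 2 genes lay closer, at 12.2 for Fosl2 and 10.8 for Fos in GANT61 and 9.48 and 5.58 in DMSO. Of the counts of Jun and Junb together, Junb took 46.7% in GANT61 (44.9 to 48.6), 38.2% in cyclopamine (36.2 to 40.1) and 34.2% in DMSO (32.1 to 36.4). Among the NR4A genes Nr4a1 held 88.9%, 90.3% and 89.5% in GANT61, cyclopamine and DMSO, with overlapping intervals. The scarce pair changed places: Nr4a3 took 9.33% in GANT61 (7.90 to 10.9), 7.09% in cyclopamine (5.70 to 8.71) and 4.28% in DMSO (2.98 to 5.93). Nr4a2 took 1.80% in GANT61 (1.19 to 2.61), 2.62% in cyclopamine (1.79 to 3.70) and 6.17% in DMSO (4.60 to 8.08). The count ratio of Nr4a3 to Nr4a2 was 5.19 in GANT61, 2.71 in cyclopamine and 0.694 in DMSO. Over all 10 genes the summed level was 500.4 CPM in GANT61, 396.7 CPM in cyclopamine and 282.4 CPM in DMSO, of which Egr1 was the largest part.

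**Figure D4:**
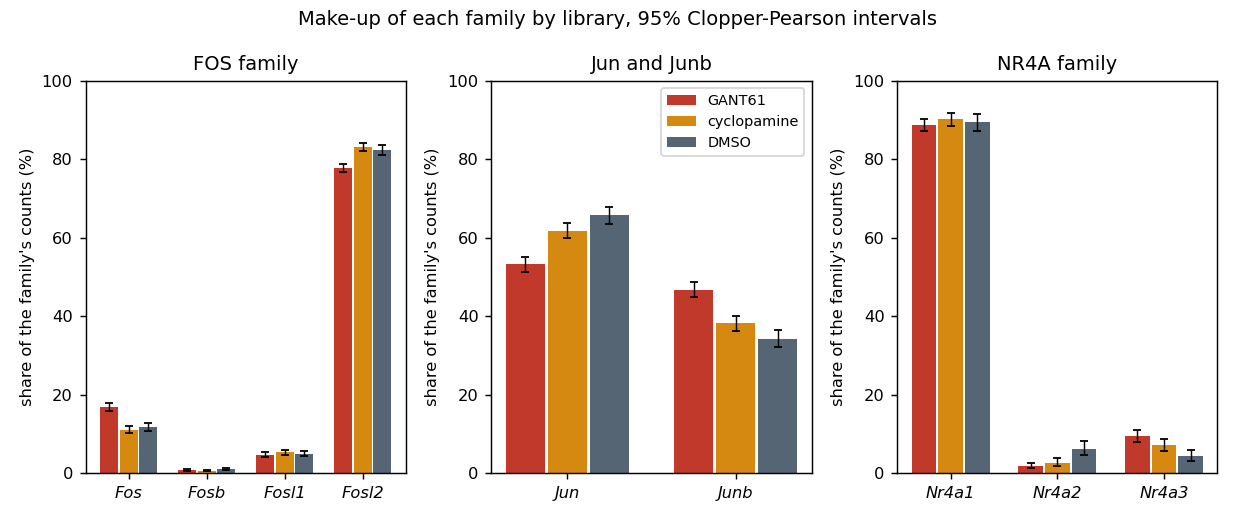
Share of each family's counts held by each gene in the GANT61, cyclopamine and DMSO libraries, with 95% Clopper-Pearson intervals. Counts are not adjusted for gene length. Fosl2 holds 77.8% to 83.1% of FOS family counts and Nr4a1 88.9% to 90.3% of NR4A counts in every library.

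Genes around the factors were read from lists of their partners, activators, feedback genes and targets. Their counts of calls are to be read beside the shares over all filtered genes, 8.40% higher and 13.3% lower in GANT61, and 4.10% higher and 7.27% lower in cyclopamine. Among 16 measured AP-1 and CREB/ATF partners, 4 were called higher in GANT61 and 2 in cyclopamine, with 0 lower in each, and medians of 0.38 and 0.13. Atf3, a stress-induced ATF factor that pairs with JUN, had 1712 counts in GANT61, 1025 in cyclopamine and 528 in DMSO, at 1.73 (1.60 to 1.88) in GANT61 and 0.89 (0.74 to 1.05) in cyclopamine. Maff, a small MAF factor, was at 1.15 in GANT61 and 0.47 in cyclopamine, and Maf, on 32 counts in DMSO, at 1.64 and 1.17. Atf4, the factor of the integrated stress response, was at 0.70 and 0.45. The list of other immediate early genes had 36 measured members. With GANT61, where the shares over all genes were 8.40% and 13.3%, it held 12 called higher and 6 called lower (median 0.15). With cyclopamine, where they were 4.10% and 7.27%, it held 4 and 3 (median 0.07). Btg2, an antiproliferative p53 target, had 7327 counts in GANT61, 4367 in cyclopamine and 2248 in DMSO, at 1.74 and 0.90. Plk2, a polo-like kinase gene, was at 1.33 in GANT61 and 0.29 in cyclopamine. Rgs2, a brake on Gq signals, had 37 counts in GANT61, 110 in cyclopamine and 266 in DMSO, at -2.74 (-3.34 to -2.31) and -1.32 (-1.67 to -1.01). Npas4, on 28 counts in DMSO, was at -1.55 and -0.96.

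The activators were read next. Of 6 genes for SRF, its ternary complex partners and the MRTF coactivators, 0 were called in either library (medians -0.12 in GANT61 and -0.06 in cyclopamine), and of 3 measured MEF2 genes 0 were (Mef2a 0.23 and 0.36, Mef2c -0.27 and -0.07, Mef2d -0.15 and -0.14). The 3 retinoid X receptor genes, whose products pair with NR4A1 and NR4A2, had 0 calls, with Rxra at 0.15 and 0.07 and Rxrb at 0.03 and -0.14, and Rxrg rested on 12 counts or fewer. Of 16 MAP kinase and RSK/MSK genes, 1 was higher and 1 lower in each inhibitor library (medians -0.03 in GANT61 and 0.08 in cyclopamine). The higher one was Mapk13, a p38 gene with 73 counts in GANT61, 46 in cyclopamine and 26 in DMSO, at 1.46 (0.87 to 2.24) in GANT61 and 0.72 (0.04 to 1.51) in cyclopamine. The lower one was Mapk10, a JNK gene with 14 counts in GANT61, 46 in cyclopamine and 84 in DMSO, at -2.39 (-3.48 to -1.72) and -0.90 (-1.48 to -0.39). Levels of these messages do not report the phosphorylation through which the kinases act.

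Feedback genes and targets followed. Among 15 dual-specificity phosphatase, Sprouty and SPRED genes, which restrain MAP kinase signals, 2 were higher and 2 lower in GANT61 (median 0.19) and 1 higher and 1 lower in cyclopamine (median 0.11), counts near the shares over all genes. Dusp4 was at 0.70 in GANT61 and 0.11 in cyclopamine, Dusp6 at 0.35 and 0.63 and Spry4 at -0.73 and -0.04, and Dusp2 rested on 4 counts in DMSO. Of 7 genes for factors that bind AU-rich elements of short-lived messages 0 were called (medians 0.13 in GANT61 and 0.06 in cyclopamine). Of 13 measured AP-1 targets, 2 were higher and 1 lower in GANT61 (median -0.04) and 0 higher and 2 lower in cyclopamine (median 0.03). Hmox1, the heme oxygenase gene, was at 1.60 in GANT61 and 0.53 in cyclopamine, Lif at 0.67 and 0.14, and Plau, the urokinase gene, at -0.27 and -0.65. Of 9 EGR1 targets 2 were higher and 0 lower in each library (medians 0.23 in GANT61 and 0.22 in cyclopamine). F3, the tissue factor gene, had 580 counts in GANT61, 434 in cyclopamine and 198 in DMSO, at 1.58 (1.36 to 1.83) and 1.06 (0.82 to 1.32). Ptgs2, the inducible cyclooxygenase gene, was at 0.72 and -0.05. Cdk5r1 was at -0.11 and 0.76 (0.11 to 1.52 in cyclopamine), on 25 counts in GANT61, 51 in cyclopamine and 28 in DMSO. Of 8 hypertrophy genes 1 was higher in GANT61, the natriuretic peptide gene Nppb at 1.33 against 0.44 in cyclopamine, and 1 lower in cyclopamine, the skeletal actin gene Acta1 at -1.16 against -0.44 in GANT61 (medians 0.04 in GANT61 and 0.11 in cyclopamine).

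**Figure D5:**
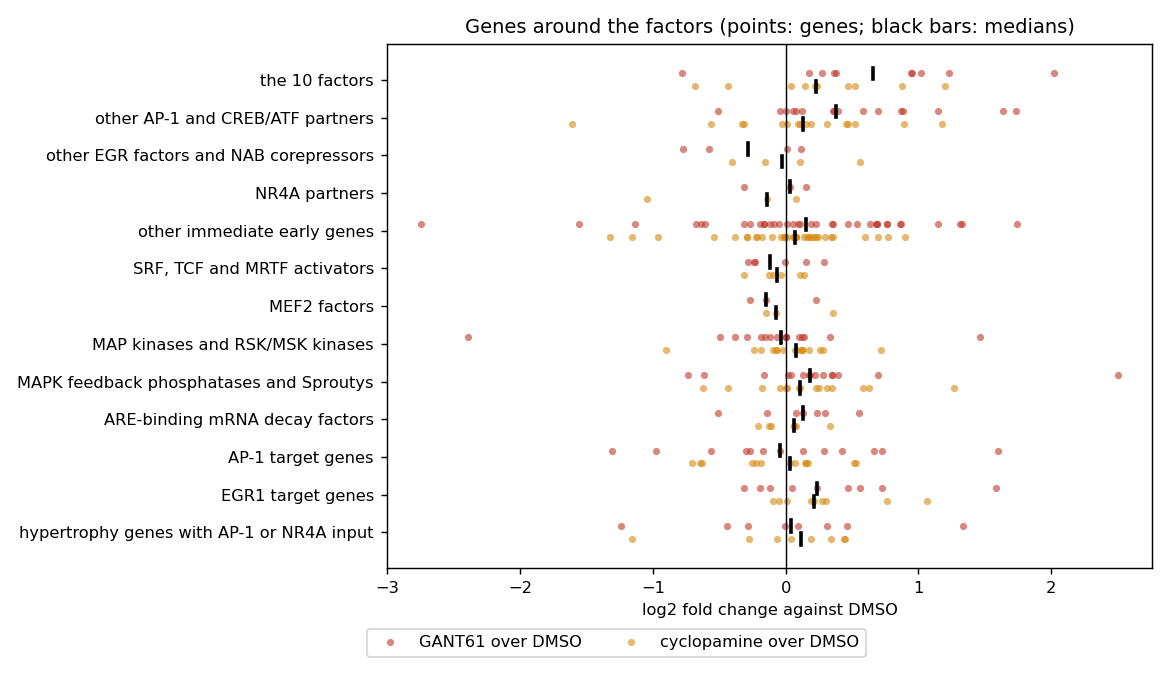
Log2 fold changes against DMSO of the 10 factors and of the genes on 12 lists around them, in GANT61 (upper row of each pair) and cyclopamine (lower row), with medians as black bars. The 10 factors have medians of 0.66 and 0.23, and the lists of activators have medians near 0.

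Genes whose pair of log2 fold changes against DMSO lay nearest to that of each called factor were sought among 9767 named genes with a mean of at least 5 CPM, by Euclidean distance over the 2 values. For Nr4a3 they were Arap2, Ddit4l and Pde1c, at distances of 0.10 to 0.20. For Egr1 they were Dkk3, Slco4a1 and Ppara, at 0.02 to 0.09. For Fos they were Slc25a25, Srxn1 and Nop2, for Junb Dmxl2, Bax and Rab30, for Nr4a1 Gar1, Pgap2 and Ccng1, and for Nr4a2 Muc15, Rrm1 and Loxl2, all at 0.06 or less. With 3 libraries this likeness rests on 2 numbers a gene. The distances are also small beside the counting intervals of the scarce factors, such as -1.55 to -0.11 for Nr4a2 in GANT61.

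Markers of other cells were read in the same libraries. Their counts of calls stand beside the shares over all filtered genes. Those were 8.40% higher and 13.3% lower in GANT61, and 4.10% higher and 7.27% lower in cyclopamine. Epicardial and mesothelial markers were called higher in GANT61 for 8 of 10 genes, with summed levels of 245.9 CPM in GANT61, 171.8 CPM in cyclopamine and 153.6 CPM in DMSO, and 3 of the 10 were called higher in cyclopamine. Fibroblast markers were higher for 1 and lower for 3 of 9 in GANT61, and higher for 1 and lower for 1 in cyclopamine, with summed levels of 949.7, 1068 and 1397 CPM in GANT61, cyclopamine and DMSO. Of 6 measured smooth muscle and pericyte markers 2 were lower in each inhibitor library, with 1592, 1683 and 2645 CPM in the same order. Endothelial markers were lower for 2 of 8 in GANT61 and 0 in cyclopamine, with 75.2, 87.1 and 92.0 CPM. Of 7 measured macrophage and leukocyte markers 1 was higher and 2 lower in GANT61 and 2 higher in cyclopamine, with 8.66, 16.1 and 10.5 CPM. Fcgr1 had 0 counts in both inhibitor libraries, and C1qb and Rgs5 had 0 in cyclopamine. In DMSO Fcgr1 had 1 count and C1qb and Rgs5 had 2 each, and each of these genes fell below the expression filter. Of the 8 cardiomyocyte markers 1, Actn2, was called lower in GANT61. The part of these cells in the levels of the 10 factors was not tested.

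The authors' deposited table of higher genes held 7 of the 10 factors, the table of lower genes held Nr4a2, and Fosb and Jun were in neither. Those tables are long, with 6612 higher and 6461 lower genes, where 22450 genes had any count. In the authors' deposited table of higher genes the mean raw count of both inhibitor libraries was at least 1.2 times the DMSO count, without scaling, wherever DMSO had a count. The same ratio, computed from the raw counts, was 1.202 for Fosl2, which is in that table, and 1.195 for Jun, which is not.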

How the data were processed

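The count table is as the authors deposited it: raw counts of reads by gene, in whole numbers and without normalization, 1 column for each of 3 groups. Column names show the group but not which replicate. Gene lists deposited by the authors repeat these counts and add a mean signal of both inhibitor columns. The tools named in the submitters' processing notes are HISAT2 2.1.0, featureCounts, Trimmomatic 0.33 and FastQC, with the build GRCm38 and no role given. The annotation, the strand setting and any pooling were not stated. A stranded mRNA kit was used, per the labels' protocols.

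The 10 factors and all lists were chosen with earlier results of these data known. The planned edgeR test needs replicates that the columns do not give, so no test was run. Genes were kept by edgeR 4.0.16 filterByExpr (minimum count 10) and scaled by TMM, and log2 CPM used a prior count of 2. Intervals are exact conditional binomial, Poisson or Clopper-Pearson at 95%. The code was tested on simulated data. Positions and exon lengths come from GENCODE M21 (GRCm38), which 55227 gene IDs matched. Named genes are the 10 factors, all members of lists of up to 5, and otherwise up to 4 called members with the largest fold per list. A few others were named after their values were seen: Jund, beside the JUN genes, overlapping genes, markers, and those of the other observations. Alternatives were DESeq2 1.42.0 size factors, library size with and without mitochondrial genes, 2 other filters, a prior count of 0.5, folds of 1.2 and 2, and the longest transcript length.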

Additional observations from a re-analysis of the deposited data

Results flagged for a closer look

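Spp1, the osteopontin gene and an AP-1 target, moved in opposite directions in the 2 inhibitor libraries, beyond counting error in each. It had 26 counts in GANT61, 104 in cyclopamine and 69 in DMSO, with log2 fold changes of -1.31 (-2.08 to -0.70) in GANT61 and 0.52 (0.08 to 0.99) in cyclopamine, where it stayed short of 1.5-fold. GANT61 against cyclopamine was at -1.82 (-2.58 to -1.27). With 1 library per group the difference was not tested across cultures. The macrophage and leukocyte markers, of which 7 of 10 passed the filter on low counts, did not share one order. Lyz2 had 163 counts in GANT61, 465 in cyclopamine and 274 in DMSO, lowest in GANT61 and highest in cyclopamine as in Spp1. Cd68 with 17, 51 and 41 counts and Ptprc with 2, 12 and 4 ranked likewise. Their counting intervals in cyclopamine against DMSO included 0 (-0.37 to 0.88 for Cd68 and -0.20 to 3.61 for Ptprc). Csf1r had 107, 57 and 40 counts and was called higher in GANT61 at 1.42. Adgre1 had 4, 6 and 12 counts, Cd14 had 8, 15 and 2, and Mrc1 had 9, 12 and 12. The part of the cells these markers stand for in the value of Spp1 was not tested.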

How the results depend on the processing

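No paired analysis was possible because the 3 count columns carry no replicate number, and for the same reason no replicate could be left out. Under the other scalings, filters and prior count, each of the 171 recomputed log2 fold changes of the 10 genes stayed inside its own counting interval, and the largest move was 0.046. The calls depend on the fold asked for and on the filter. At 1.2-fold the genes called higher were 8 in GANT61 against DMSO, 4 in cyclopamine against DMSO and 5 in GANT61 against cyclopamine, where 19.5%, 10.5% and 15.8% of all genes were. At 2-fold they were 3, 1 and 0, where 4.04%, 2.21% and 2.99% of all genes were, and 0 were called lower in GANT61 or cyclopamine against DMSO, where 7.65% and 3.90% were. With at least 5 CPM in 2 libraries, which leaves out Fosb, Nr4a2 and Nr4a3, 1 gene was called higher in cyclopamine against DMSO, 1 in GANT61 against cyclopamine, and 0 lower in GANT61 or cyclopamine against DMSO, where 1.82% and 2.68% of the genes past that filter were higher and 8.47% and 2.61% lower, and the median in GANT61 against DMSO was 0.92. With library size only, 3 genes rather than 2 were called higher in GANT61 against cyclopamine. Over all genes the share called higher was 6.94% with that scaling and 6.16% with TMM. Fosb, Nr4a2 and Nr4a3 rest on 140 counts or fewer in each library, which limits how small a difference can be seen.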

Other observations

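Other immediate early genes on the same list are given here, named after their values were seen. Rcan1, a calcineurin inhibitor gene, had 16169 counts in GANT61, 11114 in cyclopamine and 9103 in DMSO, a log2 fold change of 0.87 in GANT61. Gadd45g, a stress gene, had 5151, 3190 and 2385 counts in the same order, at 1.15 in GANT61, and Myc had 1826, 1345 and 755 counts, at 1.31. The matricellular gene Ccn1 was at 0.76. Arc, a gene of synaptic activity, had 18 counts in GANT61, 19 in cyclopamine and 43 in DMSO, at -1.13 in GANT61 and -1.16 in cyclopamine, on the same side as Npas4 and Nr4a2, all 3 on 49 counts or fewer in each library. Hbegf, an ErbB ligand gene, had 7865, 9006 and 12573 counts in GANT61, cyclopamine and DMSO, at -0.64 in GANT61, and Ier3 2605, 3651 and 4271 counts, at -0.67. No difference was tested across cultures.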
